A study of Mus musculus with 6 samples.

Results

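The integrated stress response and serine pathway genes described here were Atf4, Ddit3, Trib3, Chac1, Sesn2, Asns, Phgdh, Psat1, Shmt2 and Mthfd2, 10 of the 27198 genes in the deposited expression table, taken as the rows that carried these gene names. They matched 11 rows, because Ddit3 was listed under 2 identifiers, and 1 row of each gene passed the filter on low counts that left 16520 genes for testing. RNA was sequenced from hematopoietic stem cells (HSCs), the rare cells of the bone marrow from which all blood cells descend, of control mice given solvent (Ctrl) and of mice given ferulic acid, a plant phenolic acid with antioxidant activity, over a long term (l-FA). Mice of both groups were wild type, male, of the C57BL/6 strain, 8 to 10 weeks old and not irradiated, and l-FA mice received a daily intraperitoneal injection of ferulic acid at 50 mg/kg body weight for 30 days. HSCs were sorted as cells negative for blood lineage markers, CD34 and Flk2 (CD135, encoded by Flt3) and positive for Sca-1 and c-Kit, and their cDNA was amplified before sequencing. There were 3 libraries per group. How many mice stood behind a library was not given in the sources used here, so the p-values below measure the spread between libraries, which may be technical.

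In the integrated stress response, kinases that sense amino acid shortage, misfolded protein, double-stranded RNA or heme deficiency phosphorylate the translation factor eIF2, which lowers translation of most mRNAs while that of ATF4 rises. ATF4 then drives genes for amino acid synthesis and transport, for tRNA charging and for feedback on the response itself. Among these genes are those of the serine pathway, in which PHGDH, PSAT1 and PSPH make serine from a glycolytic intermediate and SHMT2 and MTHFD2 pass its carbon to folate inside mitochondria. HSCs are known for a low rate of protein synthesis compared with their progeny. ATF4 is controlled mainly in translation, and the data here measure RNA only.

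Total counts were 19287735 to 20380610 per Ctrl library and 19505689 to 20376031 per l-FA library, and 22467 to 22954 genes had at least 1 count. Over genes, the median chi-square between libraries was 0.890 to 1.09 within groups and 8.20 to 8.83 between groups, where counting error alone gives 0.455, so no library stood apart from its own group over most genes. Each library did have single genes that differed, counted among 11428 genes with a mean of at least 100 counts. Between 60 and 76 genes per library lay at least 1.5-fold above both other libraries of the group. Between 99 and 112 genes per library lay at least 1.5-fold below both, and Atf4 in Ctrl 3 was one of these. The labelled cell type was checked on RNA, with genes counted as higher or lower at an adjusted p under 0.05. The marker counts that follow stand beside 25.5% of all genes tested that were higher in l-FA and 25.0% that were lower. Of 15 genes of HSC surface proteins and transcription factors, 9 were higher and 1 lower, with a summed level of 2199 to 2333 CPM (counts scaled to a common library total) in Ctrl and 2553 to 2587 in l-FA. RNA of 2 genes whose proteins the sort selected against was abundant in both groups, Cd34 at 1343 CPM in Ctrl and 1579 in l-FA, and Flt3 at 759 and 1183. Summed over the 8 genes of such proteins, among them Ptprc, of which the sort used 1 protein form only, the level was 2398 to 2495 CPM in Ctrl and 3118 to 3259 in l-FA (3 higher, 1 lower of 6 tested). The 12 neutrophil and monocyte granule genes summed to 23147 to 24082 CPM in Ctrl and 6136 to 6441 in l-FA, with 10 lower and 2 higher. The 16 genes of cycling cells summed to 5521 to 5661 CPM in Ctrl and 5163 to 5235 in l-FA, with 10 lower and 1 higher. Erythroid genes summed to 997 to 1056 CPM in Ctrl and 1332 to 1410 in l-FA (4 higher, 2 lower of 11 tested), and lymphoid genes to 603 to 625 and 374 to 385 (2 higher, 2 lower of 6 tested). None of these marker genes was at 0 in all 6 libraries. The part of these shifts in the results below was not tested, and in bulk RNA fewer cells of a type and less RNA per cell cannot be told apart.

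Long-term ferulic acid came with higher RNA of 3 of the 10 genes and lower RNA of 5. Ddit3, Trib3 and Sesn2, which encode a stress transcription factor, an inhibitor of ATF4 and an inhibitor of mTORC1, were 1.85-fold, 1.27-fold and 1.19-fold higher in l-FA. Asns, Chac1, Mthfd2, Shmt2 and Phgdh, whose products make asparagine, degrade glutathione and supply serine and one-carbon units, were 1.96-fold, 1.93-fold, 1.65-fold, 1.34-fold and 1.17-fold lower. Atf4 and Psat1 did not pass the test. A gene was called when its p from the quasi-likelihood test of edgeR, adjusted over all genes tested by the Benjamini-Hochberg method, was under 0.05. By this rule 8 of the 10 genes were called, beside 50.5% of all genes tested. Of these calls, that of Chac1 was lost in 6 of the 13 fits run and that of Trib3 in 2. The 3 higher genes stand beside 25.5% of all genes called higher, and the 5 lower genes beside 25.0% called lower. None of the 10 was called with a change above 2-fold, beside 11.8% of all genes, and the libraries of both groups did not overlap for 8 of the 10, beside 60.3% of all genes. The median log2 fold change was -0.30 over the 10 genes and 0.00 over all genes tested, and the median size of the change, whatever its direction, was 0.39 and 0.29.

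**Figure D1:**
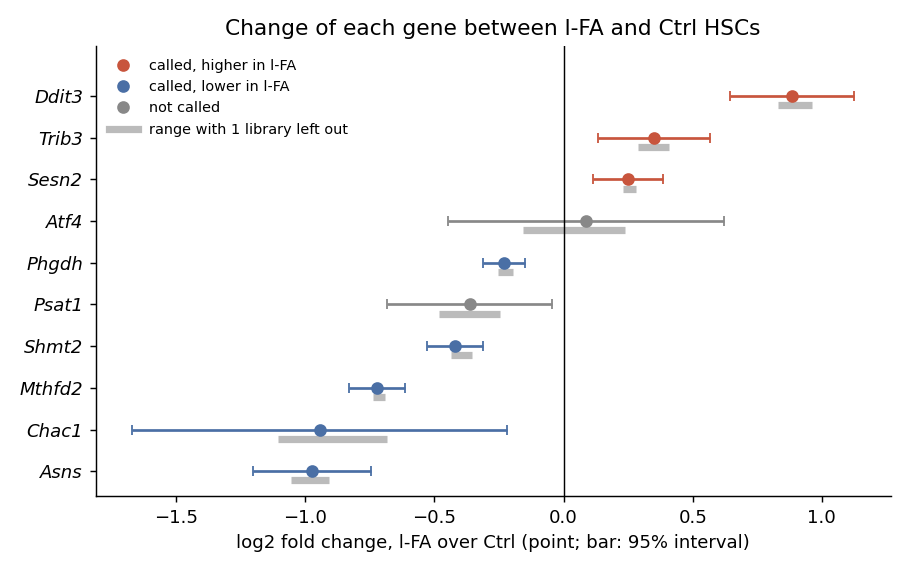
log2 fold change of each of the 10 genes between l-FA and Ctrl HSCs (x axis), with 3 libraries per group. Points are the edgeR estimates, thin bars their 95% intervals and grey bars the range with 1 library left out at a time. Ddit3 lies farthest to the right at 0.89 and Asns farthest to the left at -0.97, the interval of Atf4 spans 0, and the grey bar of Atf4 is the only one to cross 0.

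Promoter windows of 3 of the genes held a match to the C/EBP-ATF response element. ATF4 and its C/EBP partners are known to act through this sequence. The windows are shown because these genes moved in different directions. The sequences are RefSeq promoter windows of build GRCm38.p6, from 250 bases before to 50 bases after the start site, read 5′ to 3′ on the gene's strand, with the matched letters in capitals. Asns is on the minus strand (chr6:7693160-7693459), Trib3 on the minus strand (chr2:152344011-152344310) and Chac1 on the plus strand (chr2:119350992-119351291).
Asns: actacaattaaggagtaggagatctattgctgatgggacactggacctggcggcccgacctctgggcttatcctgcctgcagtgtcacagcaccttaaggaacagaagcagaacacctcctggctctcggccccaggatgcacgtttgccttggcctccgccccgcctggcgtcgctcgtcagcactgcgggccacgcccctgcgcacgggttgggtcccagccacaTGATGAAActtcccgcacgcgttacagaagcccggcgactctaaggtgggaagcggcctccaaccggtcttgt
Trib3: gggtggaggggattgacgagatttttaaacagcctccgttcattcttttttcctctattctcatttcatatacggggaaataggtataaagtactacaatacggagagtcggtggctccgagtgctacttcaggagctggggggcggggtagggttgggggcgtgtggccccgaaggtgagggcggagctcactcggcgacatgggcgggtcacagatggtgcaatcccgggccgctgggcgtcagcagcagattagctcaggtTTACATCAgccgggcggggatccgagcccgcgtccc
Chac1: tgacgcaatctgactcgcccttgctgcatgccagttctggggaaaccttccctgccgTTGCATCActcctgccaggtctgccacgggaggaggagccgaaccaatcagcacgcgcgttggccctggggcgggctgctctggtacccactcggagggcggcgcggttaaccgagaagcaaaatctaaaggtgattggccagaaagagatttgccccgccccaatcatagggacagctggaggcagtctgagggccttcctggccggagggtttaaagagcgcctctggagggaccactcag
In Asns the match began 23 bases before the start site, in Chac1 193 bases before it, and in Trib3 14 bases after it. Read along the gene, the letters were TGATGAAA in Asns, and in Trib3 and Chac1 the reverse complement, TTACATCA and TTGCATCA. The motif searched was TGATGNAA on either strand. It was found in 3 of the 11 windows that matched the 10 genes, of which Psat1 had 2, and in 1304 of all 32851 windows (3.97%). TGATGCAA, 1 form of this motif, was found in 1 of the 11, that of Chac1, and in 0.895% of all windows. The cyclic AMP response element TGACGTCA, which reads the same on both strands, was found in 0 of the 11, so that no match overlapped one of the other motif, and in 1.79% of all windows. Of the 3 genes with a match, Asns and Chac1 were lower in l-FA and Trib3 was higher. A match of letters does not show binding, which was not measured, and sequence outside the windows was not searched.

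Atf4 (ENSMUSG00000042406; chromosome 15, 80139385 to 80141742; coordinates here and below are as the deposited table lists them, on build GRCm39 per the labels) encodes the transcription factor at the centre of the response. Its level, in CPM with library totals scaled by the TMM method of edgeR, was 93.1, 89.3 and 49.4 in Ctrl 1 to 3 and 80.0, 83.3 and 82.8 in l-FA 1 to 3. The groups overlapped, since the l-FA libraries lay between Ctrl 3 and the other Ctrl libraries. The means were 77.3 ± 24.2 CPM for Ctrl and 82.0 ± 1.77 for l-FA (SD, n = 3), with a log2 fold change of 0.09 ± 0.22 (SE, 95% interval -0.45 to 0.62, edgeR adjusted p = 0.773). One library decided its direction. Without Ctrl 3 the log2 fold change was -0.16 (edgeR adjusted p = 0.0234), and with any other library left out it was up to 0.24. The coefficient of variation of Atf4 was 31.3% in Ctrl and 2.16% in l-FA.

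The 3 genes most like Atf4 over the 6 libraries, by the root mean square difference of log2 CPM centred on each gene's mean, were Degs1, Gpatch4 and Ttll12. The differences were 0.0267, 0.0429 and 0.0490 on the log2 scale, where the median over 10049 genes with at least 10 CPM was 0.335. Degs1 had 76.4, 74.6 and 41.7 CPM in Ctrl 1 to 3 and 65.1, 68.0 and 65.9 in l-FA 1 to 3. These genes were chosen for this likeness, so a low level in Ctrl 3 comes with the choice. Ctrl 3 was at least 1.5-fold below both other Ctrl libraries in 112 of the 11428 genes above, a number that Ctrl 1 reached too.

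Ddit3, which acts downstream of ATF4, had the largest rise of the 10 genes. Ddit3 (ENSMUSG00000025408; chromosome 10, 127126643 to 127132157) encodes CHOP, a transcription factor that promotes cell death under lasting stress. It had 9.48, 9.16 and 10.9 CPM in Ctrl 1 to 3 and 17.6, 17.3 and 19.9 in l-FA 1 to 3. Every l-FA library lay above every Ctrl library, and the lowest l-FA library was well above the highest Ctrl library. The mean rose from 9.86 ± 0.947 to 18.2 ± 1.43 CPM (SD, n = 3), a log2 fold change of 0.89 ± 0.10 (SE, edgeR adjusted p = 0.000566). The second Ddit3 row (ENSMUSG00000116429) lies within the first and held 1 count in each library, and was not tested. Ddit3 shares 68 bases of its span with Mars1, which fell, and 15 bases with the noncoding gene Gm4189, which had 7 to 20 counts. Whether the counting used strand was not given in the sources used here.

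Trib3 (ENSMUSG00000032715; chromosome 2, 152179342 to 152185952) encodes a pseudokinase that binds and restrains ATF4. It had 11.9, 12.8 and 11.5 CPM in Ctrl 1 to 3 and 16.9, 14.4 and 14.9 in l-FA 1 to 3, so that the groups did not overlap. The mean rose from 12.1 ± 0.655 to 15.4 ± 1.35 CPM (SD, n = 3), a log2 fold change of 0.35 ± 0.090 (SE, edgeR adjusted p = 0.0175). The call was lost without Ctrl 1 and without Ctrl 3, each with an adjusted p of 0.0572. Sesn2 (ENSMUSG00000028893; chromosome 4, 132219343 to 132237812) encodes a leucine-binding inhibitor of mTORC1. Its levels were 20.1, 20.8 and 20.3 CPM in Ctrl 1 to 3 and 23.7, 25.3 and 23.8 in l-FA 1 to 3, again without overlap. The mean rose from 20.4 ± 0.406 to 24.2 ± 0.899 CPM (SD, n = 3), with a log2 fold change of 0.25 ± 0.057 (SE, edgeR adjusted p = 0.0107). This was a small change that held in all 13 fits run, and the libraries of each group lay within 1.07-fold of each other.

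Chac1 (ENSMUSG00000027313; chromosome 2, 119181710 to 119184862) encodes an enzyme that degrades glutathione and moved opposite to Ddit3 and Trib3. It was the least covered of the 10 genes, with 47, 26 and 33 counts in Ctrl 1 to 3 and 23, 13 and 22 in l-FA 1 to 3. In CPM these were 2.45, 1.39 and 1.66 in Ctrl and 1.10, 0.648 and 1.10 in l-FA, without overlap but with a narrow gap between the groups. The mean fell from 1.83 ± 0.550 to 0.948 ± 0.260 CPM (SD, n = 3), a log2 fold change of -0.95 ± 0.30 (SE, 95% interval -1.67 to -0.22, edgeR adjusted p = 0.0386). The call was lost in 6 of the 13 fits run. These were the fit without a low-count filter (edgeR adjusted p = 0.0555) and those without Ctrl 1 (0.108), Ctrl 3 (0.0645), l-FA 1 (0.0657), l-FA 2 (0.105) or l-FA 3 (0.0639). At this depth the size of the fall was poorly fixed, and its direction was the same in all 13.

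**Figure D2:**
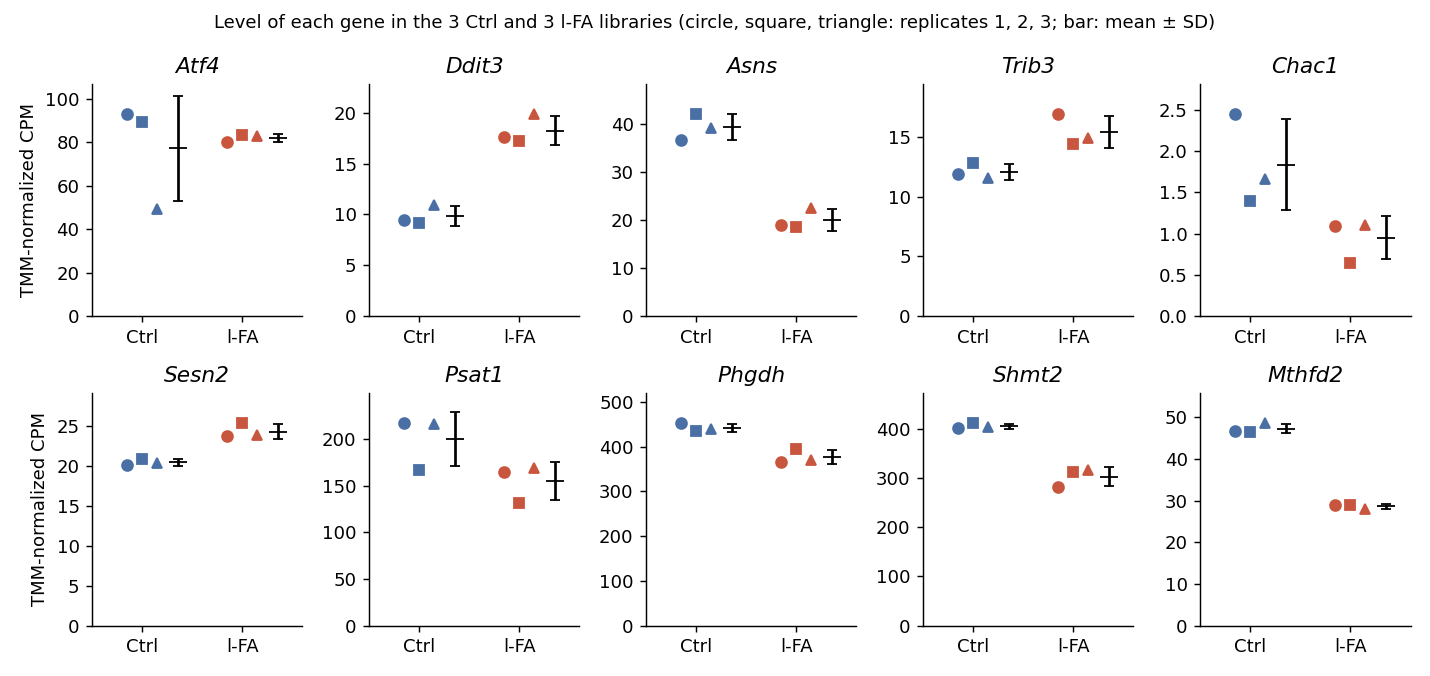
Level of each gene in the 3 Ctrl (blue) and 3 l-FA (red) libraries, in TMM-normalized CPM on axes that start at 0 and differ between genes. Circles, squares and triangles are replicates 1, 2 and 3, and bars are the mean ± SD. Atf4 is low in Ctrl 3 alone, Psat1 is lowest in replicate 2 of both groups, and the groups are apart for the other 8 genes.

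Asns (ENSMUSG00000029752; chromosome 6, 7675169 to 7693254), which encodes the asparagine synthetase and is a classic target of ATF4, had the largest fall of the 10 genes. It had 36.8, 42.2 and 39.3 CPM in Ctrl 1 to 3 and 19.0, 18.5 and 22.6 in l-FA 1 to 3. The highest l-FA library was far below the lowest Ctrl library. The mean fell from 39.4 ± 2.70 to 20.1 ± 2.24 CPM (SD, n = 3), a log2 fold change of -0.97 ± 0.095 (SE, edgeR adjusted p = 0.000318). Over these 13 fits the log2 fold change lay between -1.06 and -0.91.

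The first step of serine synthesis is made by PHGDH. Phgdh (ENSMUSG00000053398; chromosome 3, 98220486 to 98247306) had 451.9, 434.8 and 438.4 CPM in Ctrl 1 to 3 and 365.4, 394.2 and 369.3 in l-FA 1 to 3, without overlap. The mean fell from 442 ± 9.0 to 376 ± 15.6 CPM (SD, n = 3), which was the smallest fall called, with a log2 fold change of -0.23 ± 0.035 (SE, edgeR adjusted p = 0.00176). A processed pseudogene of Phgdh had 3 to 6 counts per library. Psat1 (ENSMUSG00000024640; chromosome 19, 15882042 to 15924701) encodes the aminotransferase of the next step. It had 217, 167 and 217 CPM in Ctrl 1 to 3 and 165, 132 and 169 in l-FA 1 to 3. Replicate 2 was the lowest in both groups, and Ctrl 2 lay just below the highest l-FA library, so the groups overlapped. The means were 200.02 ± 29.0 CPM for Ctrl and 155 ± 20.6 for l-FA (SD, n = 3), and the log2 fold change of -0.36 ± 0.13 (SE, 95% interval -0.69 to -0.04) did not pass after correction (edgeR adjusted p = 0.0602). It passed without Ctrl 2, at a log2 fold change of -0.48 (edgeR adjusted p = 0.0172), and in DESeq2 (adjusted p = 0.0489).

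Both mitochondrial folate enzymes fell. Shmt2 (ENSMUSG00000025403; chromosome 10, 127352992 to 127358313), which encodes the enzyme that splits serine into glycine and a one-carbon unit, had 401, 411 and 403 CPM in Ctrl 1 to 3 and 281, 312 and 315 in l-FA 1 to 3. No l-FA library reached the Ctrl range. The mean fell from 405 ± 5.14 to 303 ± 18.8 CPM (SD, n = 3), a log2 fold change of -0.42 ± 0.046 (SE, edgeR adjusted p = 0.000477). Mthfd2 (ENSMUSG00000005667; chromosome 6, 83282673 to 83302890) encodes the dehydrogenase and cyclohydrolase that works on the same carbon unit. It had 46.8, 46.5 and 48.6 CPM in Ctrl 1 to 3 and 29.1, 29.0 and 27.9 in l-FA 1 to 3. Of the 5 lower genes it had the lowest coefficient of variation within l-FA, 2.21%. The mean fell from 47.3 ± 1.11 to 28.7 ± 0.635 CPM (SD, n = 3), a log2 fold change of -0.72 ± 0.045 (SE, edgeR adjusted p = 6.03e-05). Listed genes that overlap their spans, Ndufa4l2 at Shmt2 and Gm43890 at Mthfd2, had at most 8 counts in any library.

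Levels of different genes were compared in the authors' FPKM, which are counts divided by library total and by a fixed length per gene. How that length was set was not given in the sources used here. For Atf4 and Shmt2 the length implied by counts and FPKM exceeded the listed span. The order below is thus that of the FPKM values, and the lengths behind it could not be checked. In Ctrl the order was Phgdh at 149.7 ± 3.18, Shmt2 at 67.1, Psat1 at 28.0, Atf4 at 18.4, Asns at 10.2, Mthfd2 at 9.27, Sesn2 at 5.70, Ddit3 at 4.17, Trib3 at 3.70 and Chac1 at 1.09 FPKM. The ranges of the libraries overlapped between Asns and Mthfd2 and between Ddit3 and Trib3, and not between other neighbours. Phgdh, Shmt2 and Psat1, of the serine pathway, thus stood above Atf4 in Ctrl. Mthfd2, of the same pathway, stood below Atf4, as did Asns, Chac1 and the regulators Sesn2, Ddit3 and Trib3. In l-FA, Ddit3 stood next after Atf4 at 8.13 FPKM, above Sesn2 at 7.16, Mthfd2 at 5.93 and Asns at 5.49. Asns lay below Ddit3 in l-FA and above it in Ctrl, and in neither group did the libraries of these genes overlap. In l-FA the neighbours Psat1 and Atf4, Mthfd2 and Asns, and Asns and Trib3 overlapped.

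**Figure D3:**
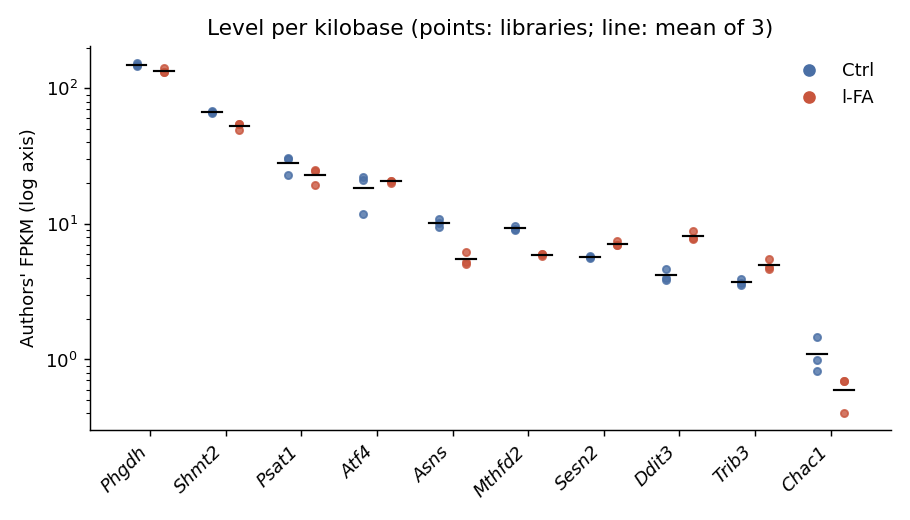
Level of each gene in the authors' FPKM on a log axis, for the 3 Ctrl (blue) and 3 l-FA (red) libraries. The gene lengths behind the FPKM were not given in the sources used here. Points are libraries and lines the mean of 3. Genes are ordered by their Ctrl mean, from Phgdh at 149.7 FPKM to Chac1 at 1.09, and Ddit3 and Asns change places between the groups.

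The remaining genes of the response were counted in 5 lists, which leave out the 10 genes above. The list upstream of ATF4 holds the eIF2 kinases, the subunits of eIF2 and of its exchange factor eIF2B, and regulators of eIF2 phosphorylation. Of its 19 genes, 11 fell, 3 rose and 5 did not pass, so that 73.7% were called beside 50.5% of all genes, and the median log2 fold change was -0.22. Of the kinases, Eif2ak3 (PERK, which senses misfolded protein) fell by 0.40 on the log2 scale (edgeR adjusted p = 0.0108), and Eif2ak2 (PKR, which senses double-stranded RNA) rose by 0.27 (adjusted p = 0.00460). Eif2ak1 (HRI, the heme-regulated kinase) fell by 0.10, a call lost in 5 of 6 fits that left out 1 library, all but that without Ctrl 2, with adjusted p up to 0.146. Eif2ak4 (GCN2, the amino acid sensor) did not pass, at -0.13 (edgeR adjusted p = 0.0833). The largest falls were in Eif2b3 (-0.56), a subunit of eIF2B, Eif2s1 (-0.55), the eIF2 subunit that is phosphorylated, and Dnajc3 (-0.50), a chaperone that inhibits PERK. The largest rise was in Ppp1r15a, which encodes GADD34, the stress-induced subunit that directs a phosphatase to eIF2. It had 186, 185 and 173 CPM in Ctrl 1 to 3 and 318, 298 and 313 in l-FA 1 to 3, a log2 fold change of 0.77 ± 0.039 (SE, edgeR adjusted p = 2.94e-05). Impact, an inhibitor of GCN2 activation, rose by 0.33.

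Of 15 ATF4 partners and feedback genes, 14 were tested, of which 3 fell, 3 rose and 8 did not pass. The share called was 42.9%, beside 50.5% of all genes, and the median log2 fold change was 0.32. Those that rose were Trib1 (0.83), a pseudokinase related to Trib3, Sesn1 (0.56), related to Sesn2, and Nupr1 (0.52), a stress-induced regulator whose call was lost without Ctrl 1, Ctrl 3, l-FA 1 or l-FA 2 (adjusted p up to 0.0679). Those that fell were Jund (-1.58), an AP-1 subunit, Cebpd (-0.70), a C/EBP factor, and Eif4ebp1 (-0.18), a repressor of cap-dependent translation. Chosen after its values were seen, Jun had 2582 counts in Ctrl 1, 27356 in Ctrl 2 and 29257 in Ctrl 3 against 52224 to 55570 in l-FA, and did not pass (log2 fold change 1.38, edgeR adjusted p = 0.176). Without Ctrl 1 it passed, at a log2 fold change of 0.85 (edgeR adjusted p = 4.18e-05). Like Atf4, it had 1 Ctrl library far below the other two, in this case Ctrl 1. Atf5 was listed but not tested, with a mean of 8.0 counts.

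Of 24 listed targets, most of them in amino acid transport and metabolism, 23 were tested, of which 8 fell, 3 rose and 12 did not pass. The list also held targets with other roles, such as Vldlr below. The 47.8% called stand beside 50.5% of all genes, and the median log2 fold change was -0.12. Bcat1, the cytosolic branched-chain aminotransferase, had 4.90, 5.73 and 5.92 CPM in Ctrl 1 to 3 and 0.952, 0.598 and 0.901 in l-FA 1 to 3, and fell by 2.74 on the log2 scale. Gpt2 (-0.84), a mitochondrial alanine aminotransferase, and Slc7a5 (-0.61), the large neutral amino acid transporter, also fell. Pck2 (0.46), the mitochondrial phosphoenolpyruvate carboxykinase, Slc7a6 (0.35), a cationic amino acid transporter whose call was lost without l-FA 2 or l-FA 3 (adjusted p up to 0.0692), and Vldlr (0.22), a lipoprotein receptor, rose. Cbs, which starts the conversion of homocysteine to cysteine and is named here after its values were seen, had 73, 57 and 83 counts in Ctrl 1 to 3 and 0 in each l-FA library. Against a floor of 3 counts in each l-FA library it was at least 24.9-fold lower, and the median of the list was the same with Cbs at this bound.

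The aminoacyl-tRNA synthetases, which charge tRNAs with amino acids, fell with few exceptions. With Xpot, a tRNA exporter, all 21 were tested, and 19 fell and none rose, beside 25.0% and 25.5% of all genes. Between 19 and 20 of them fell in each of the 13 fits without a limit on fold change. Their median log2 fold change was -0.33, and no change exceeded 2-fold. Mars1, for methionine, had 292, 303 and 297 CPM in Ctrl 1 to 3 and 180.3, 190.1 and 184 in l-FA 1 to 3, and fell by 0.68 on the log2 scale (SE 0.029, edgeR adjusted p = 1.68e-05). Nars, for asparagine, fell by 0.58, and Tars, for threonine, by 0.54. The only genes of this list that did not pass, named after their values were seen, were Qars at 0.05 (edgeR adjusted p = 0.418) and Vars at -0.05 (adjusted p = 0.305).

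Of 26 further enzymes and carriers of serine, glycine and one-carbon metabolism, 24 were tested, of which 12 fell, 3 rose and 9 did not pass. Of these 24 genes 62.5% were called, beside 50.5% of all genes, with a median log2 fold change of -0.22. Psph, which makes the last step of serine synthesis, fell by 0.15 (edgeR adjusted p = 0.0383), a call lost in each of 6 fits that left out 1 library (adjusted p up to 0.115). The cytosolic counterparts of Shmt2 and Mthfd2 fell as well, Shmt1 by 0.44 and Mthfd1 by 0.40 on the log2 scale. Mthfd1l, the next mitochondrial enzyme after Mthfd2, was at 0.02 (edgeR adjusted p = 0.722). Mthfd2l, the mitochondrial relative of Mthfd2, fell by 0.59, a call lost without Ctrl 1, Ctrl 3, l-FA 1 or l-FA 3 (adjusted p up to 0.0865). The folate carriers Slc19a1 and Slc46a1 fell by 0.60 and 0.52, the latter a call lost without Ctrl 2, Ctrl 3, l-FA 1 or l-FA 3 (adjusted p up to 0.0718). Aldh1l1 (0.65), which oxidizes formyl-tetrahydrofolate, Srr (0.43), the serine racemase, and Sfxn3 (0.19), a mitochondrial serine carrier, rose, and the call of Srr was lost without Ctrl 2, l-FA 1 or l-FA 2 (adjusted p up to 0.0657).

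**Figure D4:**
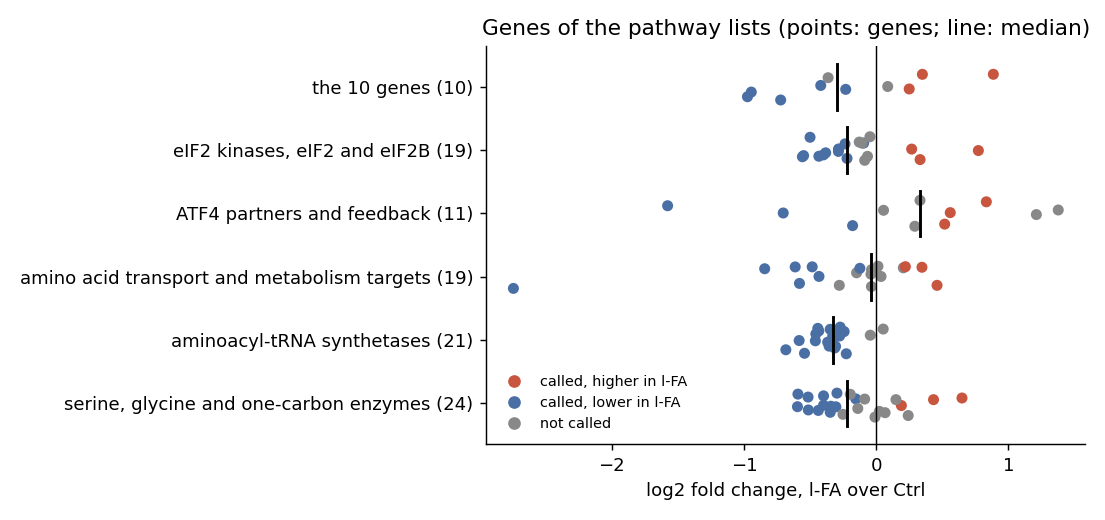
log2 fold change between l-FA and Ctrl (x axis) of the 10 genes and of the genes in 5 pathway lists with a mean of at least 50 counts (number in brackets). Points are genes, coloured by call (red higher, blue lower, grey not called), and vertical lines are medians over the points drawn. The aminoacyl-tRNA synthetases lie to the left of 0 except Qars, and the ATF4 partners and feedback genes spread widely to both sides, from Jund at -1.58 to Jun at 1.38.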

How the data were processed

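The 3 Ctrl and 3 l-FA libraries of mouse HSCs were made from amplified cDNA. The deposited table holds counts per gene as whole numbers, which the authors did not normalize, and FPKM values. The FPKM equal the same counts divided by library total and by a fixed length per gene. The basis of that length was not given in the sources used here. The labels' processing notes name HISAT2, SAMtools 1.3.1, StringTie, edgeR and build GRCm39, without their roles. The annotation, the counting tool and its use of strand were not given in the sources used here. The labels name no molecular identifiers, and without them counts of amplified cDNA are not counts of separate molecules. Groups and replicate numbers were taken from the labels.

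Counts were tested in edgeR 4.0.16 (R 4.3.3; TMM scaling, filterByExpr, glmQLFit, glmQLFTest) and p-values were adjusted by the Benjamini-Hochberg method over 16520 genes. The code was tested on simulated data with 200 changed genes. That is far fewer than the 8336 genes called here, so the simulation does not cover changes this widespread. The common biological coefficient of variation was 0.134. Promoter sequences came from RefSeq tables of build GRCm38.p6, and no coordinates were moved between builds. Named in the text were the 10 genes, the kinases and serine pathway enzymes by their roles, and of each list up to 3 called genes per direction with the largest changes and a mean of at least 50 counts. Other genes are said to be chosen after their values were seen, or mark cell types or overlap a member. The genes and lists were chosen with earlier results of these data known. The symbols Slc7a3, Fgf21, Gldc and Sds of the pathway lists, and Cd3g of the lymphoid genes, were not matched.

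The alternatives were DESeq2 1.42.0, scaling by RLE or by the upper quartile, a minimum of 10 counts in every library, no filter on low counts, a fold change above 2, the replicate number as a block, and each library left out in turn. Neither the labels nor the study's methods pair the replicate numbers.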

Additional observations from a re-analysis of the deposited data

How the results depend on the processing

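Of the log2 fold changes of the 10 genes under 13 alternatives, 110 kept their direction and call, 16 lost the call, 3 gained it in the same direction, and 1, that of Atf4 without Ctrl 3, both changed sign and gained a call (-0.16, against up to 0.24 without any other library). The 16 lost calls include 8 under a limit of a fold change above 2, which removes calls without a new fit. That limit left 1946 of the 8336 genes called, and 0 of the 10 genes. In the lists it left 0 of 14 genes upstream of ATF4 and 1 of 6 partners and feedback genes (Jund). It left 2 of 11 genes of the amino acid target list (Bcat1 and Cbs). It left 0 of 19 tRNA synthetase genes and 0 of 15 serine and one-carbon genes. With 1 library left out at a time, 6 to 9 of the 10 genes and 7459 to 7733 of all genes were called. DESeq2 called 8350 genes, the fit without a low-count filter 9123, and that with at least 10 counts in every library 7264. The motif TGATGCAA in place of TGATGNAA left 1 of 3 promoter matches.

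With the replicate number as a block, 9 of the 10 genes, Psat1 among them (edgeR adjusted p = 0.00255), and 7405 of all genes were called. Deviations of same-numbered libraries from their group means correlated at 0.0039, -0.0106 and -0.0783 over all genes tested. These values show no strong shared deviation over all genes tested. Counting noise lowers such correlations, so a weaker one could be missed. Nor can the values decide whether same-numbered libraries share a deviation in single genes. The other scalings moved the median change of all genes by at most 0.024 on the log2 scale. Chac1 had the fewest counts of the 10 genes, 13 to 47 per library.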
